A study of Mus musculus with 21 samples.

Results

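The 37 genes described here encode the transcription factor NRF2 (Nfe2l2), its inhibitor Keap1, and enzymes and transporters that make, recycle or use glutathione, thioredoxin and NADPH. They were chosen by gene symbol from the 24028 rows of a gene count table of mouse mammary tumours, and all 37 were found. RNA was sequenced from 21 tumours in 3 groups of 7. The relapse group holds tumours labelled as relapsed under BYL719 (alpelisib, an inhibitor of the PI3K catalytic subunit p110α). The stable group holds tumours labelled as stable under BYL719. The series' design text calls one of the treated groups responding in place of relapse. The vehicle group came from animals given DMSO. All 3 groups carried WAP-Cre and PIK3CA-H1047R, an activated form of the catalytic subunit. The WAP promoter drives Cre mainly in secretory mammary epithelium. The cells that each tumour grew from were not determined, and whole tumours also hold other cells of the gland. The labels give no dose, duration or age. Each title holds a code of unstated meaning, with 7 codes in relapse, 4 in stable and 3 in vehicle tumours. Relapse and stable tumours share 2 of the codes. If a code is an animal, tumours of a code are not independent, and the tests below treat each tumour as independent unless stated.

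NRF2 is a transcription factor that KEAP1 holds in the cytoplasm and marks for degradation. Oxidants and electrophiles modify KEAP1, after which NRF2 enters the nucleus and, with a small MAF protein, binds antioxidant response elements near its target genes. The targets import cystine, make glutathione, reduce quinones and thioredoxin, supply NADPH, conjugate electrophiles to glutathione and export the conjugates. PI3K and AKT signalling is known to raise NRF2 protein in several cell types by restraining GSK3, which otherwise marks NRF2 for destruction by a route separate from KEAP1. NRF2 activity is governed largely through the protein, which was not measured here.

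Total counts were between 17722622 and 21431465 in relapse tumours, 13337848 and 24648463 in stable tumours, and 21043399 and 24873844 in vehicle tumours. Levels are given in CPM, the count of a gene per 1000000 counts of its library, with totals scaled by the trimmed mean of M values (TMM). Krt8, a keratin of luminal epithelium, was present in every tumour, between 121 and 999 CPM. Vehicle 2, 6 and 7 stood apart: the summed level of 14 basal and myoepithelial markers was 11617 to 24520 CPM in them, against 1507 to 6078 CPM in the other vehicle tumours. It was 1300 to 2704 CPM in relapse tumours and 747 to 1895 CPM in stable tumours. In vehicle 2, 6 and 7, against the other vehicle tumours, summed fibroblast markers were also higher (4013 to 9136 against 1037 to 2636 CPM). Endothelial sums (304 to 564 against 157 to 211 CPM) and T and NK cell sums were higher too. Squamous sums (13.2 to 326 against 1002 to 3833 CPM) and neutrophil sums (7.23 to 18.2 against 125 to 398 CPM) were lower. So were B and plasma cell sums. The summed level of 13 skeletal muscle markers was 2398 to 7982 CPM in relapse tumours other than relapse 4, which had 192 CPM, and 233 to 998 CPM in stable tumours other than stable 5, which had 4602 CPM. It was 221 to 578 CPM in vehicle tumours. The muscle creatine kinase Ckm was at 0 in vehicle 7 and at most 12.3 CPM in the other vehicle tumours. None of these markers was at 0 in all 21 tumours. Results below are also given without vehicle 2, 6 and 7. In whole tumours, fewer cells of a type and less RNA per cell cannot be told apart.

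Both treated groups had less RNA of Nqo1, Gclc, Gsta4, Abcc4 and Nfe2l2 itself than the vehicle group, while most of the 37 genes did not pass the test. In relapse against vehicle, 6 of the 37 were called at an adjusted p under 0.05 by edgeR's quasi-likelihood test (16.2%), where 11.2% of all 15792 genes tested were called. Of the 6, 5 fell (13.5%, against 5.8% of all genes) and 1, Gpx3, rose (2.7%, against 5.42%). In stable against vehicle, 7 of 37 were called (18.9%), where 15.1% of all genes were. All 7 fell, against 8.16% of all genes, and 0 rose, against 6.9%. With both directions together, the share called was near the background in each comparison. More of the genes lay below 0: the log2 fold change was negative for 34 of 37 in relapse against vehicle (52.2% of all genes) and for 29 of 37 in stable against vehicle (50.5%). Median log2 fold changes were −0.31 and −0.38 over the 37 genes, against −0.02 and −0.005 over all genes. The 2 comparisons share the vehicle tumours and are not independent.

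**Figure D1:**
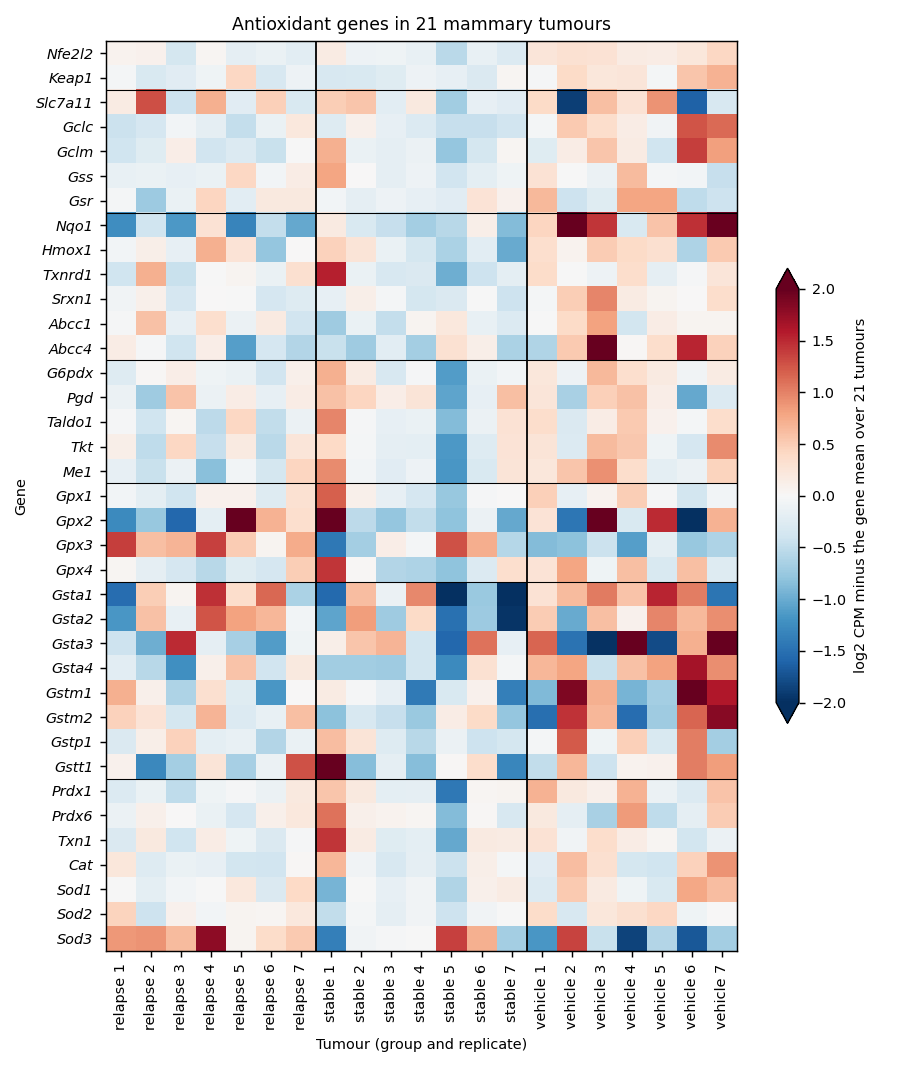
Level of each of the 37 genes (rows, by role) in each of 21 tumours (columns, relapse, stable, vehicle), as log2 CPM minus the gene's mean over all tumours; red is above and blue below the mean, and colours saturate at the ends of the scale. Stable 1 is the highest of all tumours for 10 genes and stable 5 the lowest for 16.

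Nfe2l2 had 111 to 151 CPM (median 129) in relapse tumours and 97.8 to 160 CPM (median 128) in stable tumours, against 157 to 189 CPM (median 168) in vehicle tumours. All relapse tumours lay below all vehicle tumours, whereas stable 1 reached into the vehicle range. The log2 fold change was −0.35 ± 0.10 (SE) in relapse against vehicle (edgeR adjusted p = 0.0230) and −0.41 ± 0.10 in stable against vehicle (adjusted p = 0.00931), with 7 of 7 tumours below the vehicle median in each. Keap1, the adaptor that brings NRF2 to its ubiquitin ligase, had 43.4 to 72.1 CPM (median 50.7) in relapse tumours and 43.4 to 55.4 CPM (median 45.7) in stable tumours, against 52.6 to 87.7 CPM (median 64.1) in vehicle tumours. Relapse 5 and stable 7 reached into the vehicle range, and the other treated tumours lay below it. Keap1 fell in stable against vehicle (−0.51 ± 0.13, edgeR adjusted p = 0.0136), and in relapse against vehicle the value was −0.39 ± 0.13 (adjusted p = 0.0508). The factor and its inhibitor both had lower medians in treated tumours. Keap1 overlaps an antisense gene over 510 exon bases, and no source used here states whether counting used strand.

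The core of the antioxidant response element, TGACNNNGC, was sought on both strands of windows around annotated transcript starts (GRCm38.p6). Each window ran from 250 bases before to 50 bases after a start. The windows did not cover every start: those of Slc7a11, Abcc4 and Gstt1 lay within the gene, short of its outer RefSeq start. Windows were found for 30 of the 37 genes, and none for Hmox1, Gclc, Gsr, Gsta4, Prdx6, Sod3 and Abcc1. The core was present for 11 of these 30 genes (36.7%), against 14% of all 27025 genes with a window, and the stricter form TGACTCAGC, which also matches the core, for 2 (6.67%), against 0.503%. The stretches around the core are shown for Nfe2l2 and Abcc4, which were called, for Gclm, the partner of a called gene, for G6pdx as an NADPH source, and for Me1 and Prdx1, which hold the stricter form. Capitals mark the core with each sequence on the gene's own strand, 5′ to 3′. The core reads forward in Nfe2l2, Me1 and the second start of Abcc4, and as its reverse complement in the others.
Nfe2l2, chr2:75704865-75704913, minus strand: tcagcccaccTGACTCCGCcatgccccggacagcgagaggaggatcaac
Gclm, chr3:122245393-122245461, plus strand: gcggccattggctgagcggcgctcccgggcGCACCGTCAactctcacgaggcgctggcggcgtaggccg
G6pdx, chrX:74428899-74428967, minus strand: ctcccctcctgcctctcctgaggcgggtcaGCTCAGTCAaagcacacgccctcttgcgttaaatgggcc
Me1, chr9:86695912-86695950, minus strand: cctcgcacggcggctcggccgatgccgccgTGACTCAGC
Prdx1, chr4:116685436-116685504, plus strand: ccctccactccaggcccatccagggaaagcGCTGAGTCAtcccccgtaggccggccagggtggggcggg
Abcc4, first start, chr14:118706220-118706274, minus strand: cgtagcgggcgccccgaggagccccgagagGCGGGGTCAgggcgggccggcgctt
Abcc4, second start, chr14:118676932-118676984, minus strand: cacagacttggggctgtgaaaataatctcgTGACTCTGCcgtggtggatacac
The windows of Nqo1, Keap1 and Gpx3 held no core, and those of Srxn1, Txnrd1, Pgd, Gsta3 and Sod1 held 1 each. Known NRF2 targets were among the genes chosen, so a higher share with the core was likely in advance. These shares say nothing about the tumours. A match of letters is a description, not a site or a cause. Elements of several of these genes are known to lie farther from the start, outside such windows.

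Among the 5 genes of cystine import and glutathione synthesis and recycling, Gclc was the one called. It encodes the catalytic subunit of glutamate-cysteine ligase, the rate-limiting enzyme of glutathione synthesis (GRCm38.p6, chr9:77754535-77794489, plus strand). Gclc had 30.6 to 48.9 CPM (median 37.4) in relapse tumours and 30.8 to 45.3 CPM (median 35.2) in stable tumours, against 40.3 to 102 CPM (median 54.1) in vehicle tumours. Vehicle 2, 6 and 7 were the highest vehicle tumours, at 61.3 CPM and above, and the treated ranges overlapped the 4 others. Gclc fell in relapse against vehicle (−0.75 ± 0.19, edgeR adjusted p = 0.0167, 7 of 7 below the vehicle median) and in stable against vehicle (−0.82 ± 0.19, adjusted p = 0.00914, 7 of 7).

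Gclm, the modifier subunit of the same ligase, had 30.9 to 46.5 CPM (median 35.1) in relapse tumours and 24.8 to 69.0 CPM (median 38.6) in stable tumours, against 32.0 to 110 CPM (median 47.2) in vehicle tumours. The groups overlapped, and it was not called in either comparison (−0.68 ± 0.24, edgeR adjusted p = 0.0709, and −0.52 ± 0.24, adjusted p = 0.147). Slc7a11, which imports cystine in exchange for glutamate, had 22.9 to 74.9 CPM (median 34.0) in relapse tumours and 18.8 to 45.0 CPM (median 27.2) in stable tumours, against 8.23 to 57.2 CPM (median 37.3) in vehicle tumours. Vehicle 2, 6 and 7 were the lowest vehicle tumours, at most 24.4 CPM, the reverse of Gclc, and the groups overlapped. It was not called (0.30 ± 0.37, edgeR adjusted p = 0.647, and −0.01 ± 0.37, adjusted p = 0.985). The remaining genes of the group, glutathione synthetase Gss and glutathione reductase Gsr, were not called in either comparison. Gss overlaps Acss2 on the opposite strand over 395 exon bases.

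Nqo1, a quinone reductase often used as a readout of NRF2, had the lowest log2 fold change of the 37 genes in both comparisons with vehicle. It had 6.87 to 21.2 CPM (median 8.51) in relapse tumours and 9.45 to 19.6 CPM (median 12.6) in stable tumours, against 14.0 to 88.6 CPM (median 47.0) in vehicle tumours. The lowest vehicle tumour lay within both treated ranges, and vehicle 2, 6 and 7 were the highest of all 21. The log2 fold change was −2.03 ± 0.36 in relapse against vehicle (edgeR adjusted p = 0.00256), 4.08-fold lower, and −1.70 ± 0.35 in stable against vehicle (adjusted p = 0.00457), 3.24-fold lower, with 7 of 7 tumours below the vehicle median in each. Nqo1 lies at chr8:107388225-107403205 (GRCm38.p6) on the minus strand.

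The NRF2 targets Hmox1 and Txnrd1 were not called. Hmox1, heme oxygenase, had 15.2 to 42.6 CPM (median 26.2) in relapse tumours and 12.9 to 36.0 CPM (median 22.6) in stable tumours, against 16.9 to 37.4 CPM (median 32.9) in vehicle tumours. The ranges lay over each other, and it was not called (−0.18 ± 0.23, edgeR adjusted p = 0.653, and −0.42 ± 0.23, adjusted p = 0.219). Txnrd1, the cytosolic thioredoxin reductase, had 152 to 340 CPM (median 207) in relapse tumours and 105 to 609 CPM (median 171) in stable tumours, against 183 to 269 CPM (median 206) in vehicle tumours. Stable 1 alone set the upper end of the stable range, since the other stable tumours had at most 190 CPM. Txnrd1 was not called (−0.04 ± 0.29, edgeR adjusted p = 0.939, and 0.01 ± 0.29, adjusted p = 0.984). Its 95% intervals on the log2 scale, −0.65 to 0.56 and −0.60 to 0.62, leave room for changes in either direction.

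Srxn1, sulfiredoxin, which repairs overoxidised peroxiredoxins, had 18.6 to 25.5 CPM (median 22.6) in relapse tumours and 17.8 to 25.7 CPM (median 21.1) in stable tumours, against 23.1 to 46.8 CPM (median 26.6) in vehicle tumours. The treated ranges overlapped the lower end of the vehicle range. It fell in stable against vehicle (−0.48 ± 0.15, edgeR adjusted p = 0.0323, 7 of 7 below the vehicle median) and stood at −0.45 ± 0.15 in relapse against vehicle (adjusted p = 0.0512). Abcc4, an exporter of organic anions and cyclic nucleotides, had 7.16 to 17.2 CPM (median 12.2) in relapse tumours and 9.36 to 19.0 CPM (median 11.3) in stable tumours, against 10.1 to 66.3 CPM (median 21.4) in vehicle tumours. Vehicle 3 was the highest, and the 2 lowest vehicle tumours lay within the treated ranges. The fall was −1.14 ± 0.33 in relapse against vehicle (edgeR adjusted p = 0.0315) and −1.16 ± 0.33 in stable against vehicle (adjusted p = 0.0252), 7 of 7 in each. Abcc1, the exporter of glutathione conjugates, was not called.

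**Figure D2:**
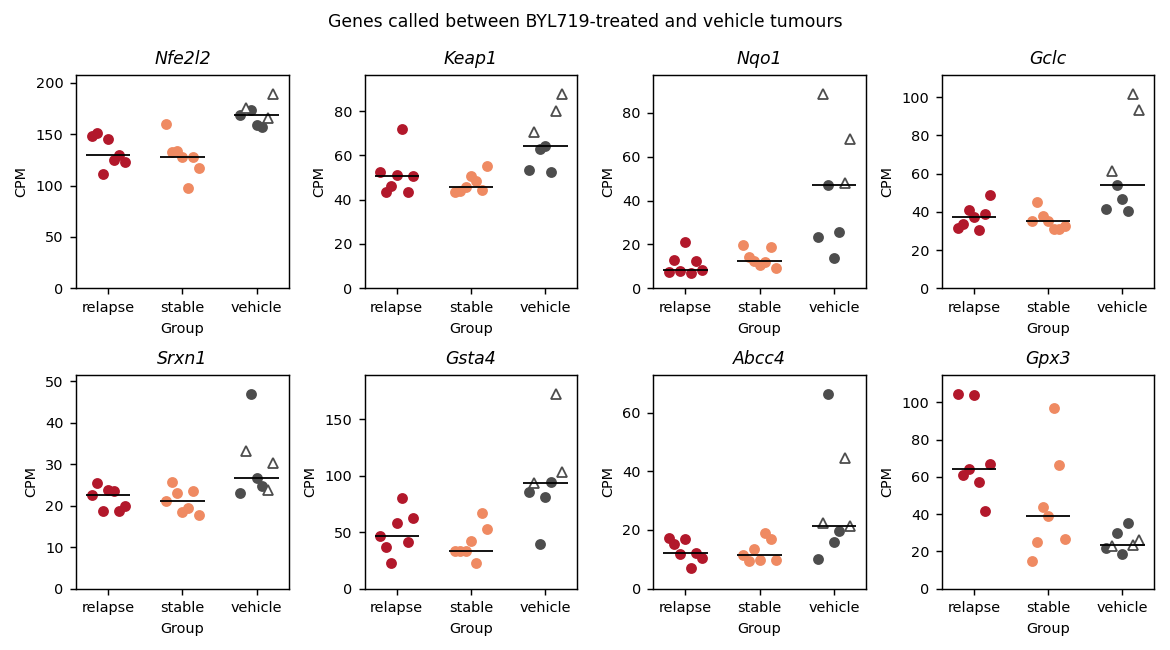
CPM of the 8 genes called in at least 1 comparison with vehicle, in each relapse, stable and vehicle tumour (points) with the group median (bar). Open triangles are vehicle 2, 6 and 7, which are the highest vehicle tumours for Nqo1, Keap1 and Gclc; the relapse and vehicle points of Nfe2l2 and Gpx3 do not overlap.

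Of the 8 glutathione S-transferases, which join glutathione to electrophiles, 8 had a log2 fold change below 0 in relapse against vehicle and 7 in stable against vehicle, and 1, Gsta4, was called in each. Gsta4, known for conjugating the lipid peroxidation product 4-hydroxynonenal, had 23.1 to 80.4 CPM (median 46.6) in relapse tumours and 22.4 to 67.4 CPM (median 33.6) in stable tumours, against 39.7 to 172 CPM (median 93.4) in vehicle tumours. A single vehicle tumour lay below the top of the stable range. Gsta4 fell by 0.94 ± 0.29 on the log2 scale in relapse against vehicle (edgeR adjusted p = 0.0409) and by 1.23 ± 0.29 in stable against vehicle (adjusted p = 0.0100), 7 of 7 tumours in each. The other 7 transferases had log2 fold changes between −1.21 and −0.06 in relapse against vehicle and between −1.38 and 0.04 in stable against vehicle. Gstm1 and Gstm2, chosen after their values were seen, had 52.0 to 78.4 CPM and 16.2 to 25.6 CPM in vehicle 2, 6 and 7, against 8.97 to 28.2 CPM and 2.44 to 11.5 CPM in the other vehicle tumours. Related copies may share reads in the pairs Gsta1 and Gsta2, Gstm1 and Gstm2, and Gstp1 and Gstp2, so single values for these are uncertain. The sharing of reads was not measured.

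Gpx3, the secreted glutathione peroxidase of plasma and extracellular fluid, was the one gene that rose. It had 41.5 to 104 CPM (median 64.3) in relapse tumours and 14.7 to 97.0 CPM (median 39.1) in stable tumours, against 18.6 to 35.1 CPM (median 23.7) in vehicle tumours. All relapse tumours lay above all vehicle tumours, while stable tumours ranged from below the lowest vehicle tumour to the relapse range. The log2 fold change was 1.49 ± 0.32 in relapse against vehicle (edgeR adjusted p = 0.00719), 2.81-fold higher, and 0.82 ± 0.32 in stable against vehicle (adjusted p = 0.0839). In relapse against stable it was 0.67 ± 0.31 (edgeR adjusted p = 0.990). Markers of other cell types were also called higher in relapse against vehicle: 12 of 13 skeletal muscle, 4 of 13 fibroblast, 2 of 14 adipocyte and 3 of 8 milk and alveolar markers, against 5.42% of all genes. Summed adipocyte markers reached 1992 CPM (median 621) in relapse tumours and 1031 CPM (median 403) in stable tumours, against 1263 CPM (median 253) in vehicle tumours. Fibroblast sums were 1832 to 7256, 1660 to 8741 and 1037 to 9136 CPM in relapse, stable and vehicle tumours, and milk and alveolar sums 1947 to 29949, 828 to 21050 and 2439 to 8969 CPM. The adipocyte, fibroblast and milk and alveolar sums overlapped between the groups, and the part of these cells in the rise of Gpx3 was not tested. With skeletal muscle markers as a covariate, Gpx3 was at 1.29 in relapse against vehicle (edgeR adjusted p = 0.320). The other 3 peroxidases, Gpx1 and Gpx2 of the cell interior and Gpx4, which reduces lipid peroxides, were not called. Gpx3 and Nfe2l2 were the 2 of 37 genes (5.41%) whose relapse and vehicle tumours did not overlap, against 3.01% of all genes. In stable against vehicle this held for 0 of 37, against 2.87%.

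None of the 5 genes of NADPH supply was called in any comparison: G6pdx and Pgd of the oxidative pentose phosphate pathway, Taldo1 and Tkt of its other branch, and malic enzyme Me1. Their log2 fold changes lay between −0.53 and −0.02 in relapse against vehicle (lowest edgeR adjusted p = 0.166) and between −0.41 and 0.17 in stable against vehicle (lowest adjusted p = 0.232). G6pdx overlaps Ikbkg on the opposite strand over 418 exon bases. The 7 peroxiredoxins, thioredoxin, catalase and superoxide dismutases also gave 0 calls, with log2 fold changes between −0.44 and 1.16 (lowest edgeR adjusted p = 0.110) and between −0.44 and 0.55 (lowest adjusted p = 0.0943). The highest value of each range was that of Sod3, the extracellular superoxide dismutase, named here after its values were seen. Sod3 had 29.5 to 99.1 CPM (median 44.2) in relapse tumours and 11.0 to 73.9 CPM (median 28.1) in stable tumours, against 7.84 to 72.7 CPM (median 17.8) in vehicle tumours. Vehicle 2, at 72.7 CPM, was the one vehicle tumour within the relapse range; the other vehicle tumours lay below all relapse tumours. The log2 fold change was 1.16 ± 0.46 in relapse against vehicle (edgeR adjusted p = 0.110, 7 of 7 above the vehicle median) and 0.55 ± 0.46 in stable against vehicle (adjusted p = 0.438). Without vehicle 2 it was 1.80 (edgeR adjusted p = 0.0106) and 1.19 (adjusted p = 0.0492), both called. Of 21 fits with 1 tumour left out, this was the only 1 with a call of Sod3 in either comparison. Of 11 other settings, 2 called it in relapse against vehicle and 0 in stable against vehicle. Among the 2 was limma voom on all tumours (1.48, adjusted p = 0.0342).

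**Figure D3:**
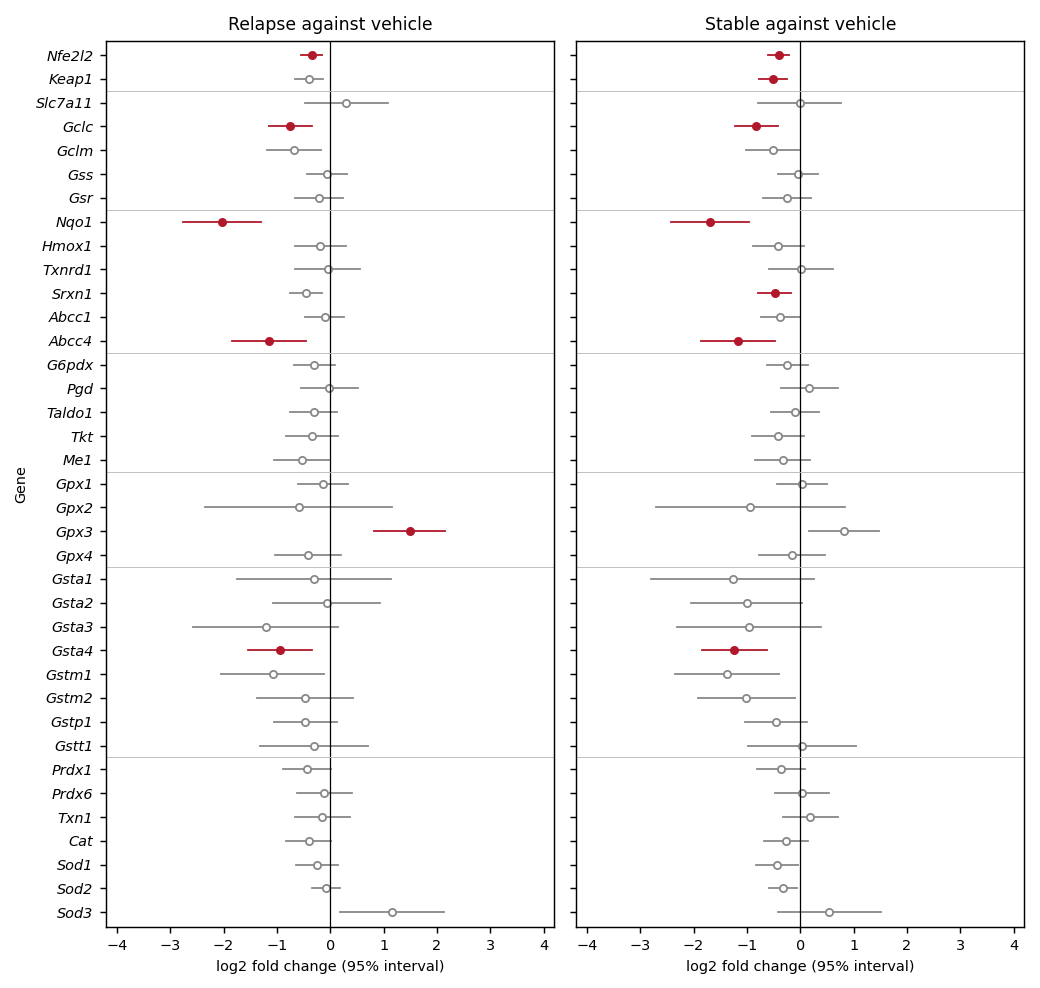
Log2 fold change with its 95% interval (edgeR) for each of the 37 genes, relapse against vehicle on the left and stable against vehicle on the right; filled red points are genes called at an adjusted p under 0.05. All called points lie below 0 except Gpx3 in relapse against vehicle, at 1.49.

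Levels per length, as CPM per kilobase of the deposited gene width (RPKM), spanned from housekeeping to near silent. Prdx1 and Gpx1 were the highest by median over the 21 tumours, at 229 and 212 RPKM, followed by Taldo1 at 128 RPKM. Among the regulators and the glutathione ligase, Nfe2l2 had 38.4 RPKM, Keap1 11.4 RPKM, Gclc 11.3 RPKM and Gclm 18.6 RPKM. Gsta1 and Gpx2 were the lowest, at 0.506 and 0.775 RPKM. The widths are 0.163 to 1 times the exon length of GENCODE (median 0.730), so levels of different genes are approximate.

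Single stable tumours held many of the highest and lowest values. Stable 1 was the highest of all 21 tumours for 10 genes (Txnrd1, Txn1, Gss, G6pdx, Taldo1, Me1, Gpx1, Gpx4, Gstt1 and Prdx6) and the lowest for 4 (Gpx3, Sod1, Sod2 and Abcc1). Stable 5 was the lowest for 16, among them Nfe2l2, Gclm, Txnrd1, Gsta4 and Cat. In stable 1 the summed luminal markers were 4920 CPM, the highest stable value (others at most 4330 CPM). The milk and alveolar markers were 828 CPM, the lowest (others at least 1163 CPM). Its squamous (46.9 CPM, others at least 331 CPM) and basal and myoepithelial sums (747 CPM, others at least 1233 CPM) were also the lowest. So were its neutrophil (23.0 CPM, others at least 41.1 CPM), adipocyte and endothelial sums. Stable 5 had the highest stable sums of skeletal muscle, adipocyte (1031 CPM) and fibroblast markers (8741 CPM). It also had the highest stable sums of endothelial, T and NK cell, B and plasma cell and erythroid markers, and the lowest of luminal markers. The part of these cell types in the values was not tested.

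None of the 37 genes was called between the treated groups. In relapse against stable, 0 of the 37 genes and 0 of all 15792 genes (0%) were called by edgeR, with 1 of 37 and 751 of all genes at an unadjusted p under 0.05. DESeq2 called 6 genes and limma voom 0, none of them among the 37. The lowest edgeR adjusted p among the 37 was 0.990. The log2 fold change was below 0 for 17 of 37 genes (52% of all genes), with a median of 0.03. For Nqo1 the difference was −0.33 with a 95% interval of −1.05 to 0.38, and for Nfe2l2 it was 0.06 with an interval of −0.14 to 0.26.

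The calls against vehicle depended on which vehicle tumours were used. Vehicle 2, 6 and 7 were the 3 highest vehicle tumours for 8 of the 37 genes (21.6%, against 21.1% of all genes), among them Nqo1, Keap1, Gclc, Gstm1 and Cat, and the 3 lowest for 7 (18.9%, against 21.1%), among them Slc7a11, Gsr, Pgd and Sod2. Without these 3 tumours, edgeR called 2 of the 37 in relapse against vehicle (3.28% of all genes): Nqo1 at −1.31 (adjusted p = 0.0408) and Sod3 at 1.76 (adjusted p = 0.0457). It called 1 in stable against vehicle (5.27% of all genes), the mitochondrial superoxide dismutase Sod2 at −0.49 (edgeR adjusted p = 0.0338). Gclc was then at −0.28 (edgeR adjusted p = 0.258) and −0.35 (adjusted p = 0.138). Nqo1 in stable against vehicle was at −0.97 (adjusted p = 0.0886) and Keap1 at −0.29 (adjusted p = 0.189).

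Nfe2l2, Abcc4, Gpx3 and Srxn1 lost their call with less change in size. Nfe2l2 was at −0.30 (edgeR adjusted p = 0.144) and −0.35 (adjusted p = 0.0800) without vehicle 2, 6 and 7. Abcc4 was at −1.10 (adjusted p = 0.107) and −1.12 (adjusted p = 0.0937), and Gpx3 in relapse against vehicle at 1.45 (adjusted p = 0.0608). Srxn1 in stable against vehicle was at −0.50 (edgeR adjusted p = 0.0937). Gsta4 moved further, to −0.59 (edgeR adjusted p = 0.299) and −0.88 (adjusted p = 0.104), against −0.94 and −1.23 with all tumours. Gstm1 and Gstm2, which were not called with all tumours, were at 0.25 and 0.72 in relapse against vehicle without the 3. The medians over the 37 genes were −0.28 and −0.34, against 0.02 and 0.05 over all genes.

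**Figure D4:**
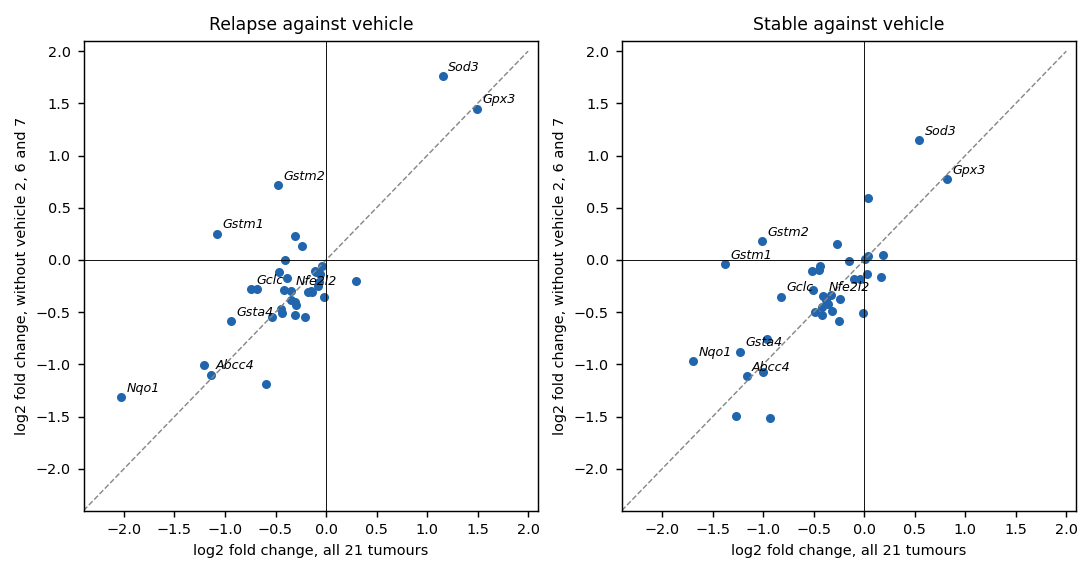
Log2 fold change of each of the 37 genes with all 21 tumours (horizontal axis) and without vehicle 2, 6 and 7 (vertical axis), for relapse and for stable against vehicle; the dashed line marks equal values. Nqo1 and Gclc lie above the line, closer to 0 without the 3 tumours, while Abcc4, Nfe2l2 and Gpx3 lie near it.

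Calls also ended in fits that left out single tumours, summed counts per title code or took muscle markers as a covariate. In relapse against vehicle, Nfe2l2 lost its call without vehicle 2 (edgeR adjusted p = 0.0521) or vehicle 7 (adjusted p = 0.0600). Gsta4 lost it without any 1 of relapse 1, 2, 3, 4 or 6, stable 4 or vehicle 2, 6 or 7, and Abcc4 without any 1 of relapse 3, 5, 6 or 7 or vehicle 3 or 6 (highest edgeR adjusted p = 0.102 and 0.0771). In stable against vehicle, Srxn1 lost its call without any 1 of stable 4, 5 or 7 or vehicle 2, 3 or 7, and Abcc4 without stable 4 or vehicle 3 or 6 (highest adjusted p = 0.0686 and 0.0624). Nqo1 and Gclc in both comparisons, Gpx3 in relapse against vehicle, and Nfe2l2, Keap1 and Gsta4 in stable against vehicle kept their call without each tumour in turn. With counts summed over tumours of a group that share a title code, edgeR called 4 of the 37 in relapse against vehicle (5.87% of all genes), without Nfe2l2 (−0.33, adjusted p = 0.133) and Gsta4 (−0.86, adjusted p = 0.148). In stable against vehicle it then called 2 (3.64% of all genes), Nqo1 at −1.72 (adjusted p = 0.0274) and Gclc at −0.80 (adjusted p = 0.0360). The 5 calls lost there were Nfe2l2 (−0.46), Keap1 (−0.44), Srxn1 (−0.56), Gsta4 (−1.17) and Abcc4 (−1.10), with edgeR adjusted p between 0.0704 and 0.150. With the mean log2 level of the skeletal muscle markers as a covariate, 0 of the 37 genes were called in either comparison. Of all genes, edgeR then called 23 and 316 (0.146% and 2%), and 1198 and 2791 were at an unadjusted p under 0.05. In relapse against vehicle, Gpx3 was then at 1.29, Nqo1 at −1.04, Abcc4 at −0.88, Gsta4 at −0.72, Gclc at −0.34 and Nfe2l2 at −0.17 (edgeR adjusted p between 0.320 and 0.874). In stable against vehicle, Gsta4 was at −1.09, Nqo1 at −0.98, Abcc4 at −0.97, Gclc at −0.57, Keap1 at −0.45, Srxn1 at −0.31 and Nfe2l2 at −0.30 (edgeR adjusted p between 0.118 and 0.348). The muscle sums of relapse and vehicle tumours overlapped through relapse 4 alone, so muscle content and treatment can hardly be told apart there. In stable against vehicle, 7 of 13 muscle markers were also called higher, so the covariate and treatment went partly together there.

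Beyond the 37, 106 further genes of the pathway stand in 5 lists, and 101 were tested. In relapse against vehicle 4 rose and 9 fell (12.9% called, against 11.2% of all genes), in stable against vehicle 4 rose and 17 fell (20.8%, against 15.1%), and in relapse against stable 0 were called. Among 14 regulators, Bach2, a repressor that competes with NRF2 for antioxidant response elements, averaged 56.0 ± 17.4 CPM in relapse tumours and 60.2 ± 13.6 CPM in stable tumours, against 22.2 ± 5.49 CPM in vehicle tumours (SD, n = 7 each). Every treated tumour lay above the vehicle median. Bach2 rose by 1.33 ± 0.21 (SE, log2) in relapse against vehicle (edgeR adjusted p = 0.00132) and by 1.44 ± 0.21 in stable against vehicle (adjusted p = 0.000426). It stayed called without vehicle 2, 6 and 7, at 1.12 (edgeR adjusted p = 0.0223) and 1.24 (adjusted p = 0.00790). Mafg, a small MAF partner of NRF2, rose in relapse against vehicle (0.72 ± 0.19, edgeR adjusted p = 0.0219), and was at 0.46 (adjusted p = 0.191) without the 3 tumours.

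Of 24 other NRF2 targets tested, 0 rose in either comparison, 2 fell in relapse against vehicle (8.33%, against 5.8% of all genes) and 4 in stable against vehicle (16.7%, against 8.16%). Ephx1, the microsomal epoxide hydrolase, averaged 64.5 ± 3.49 CPM in relapse tumours and 69.2 ± 13.3 CPM in stable tumours, against 107 ± 40.2 CPM in vehicle tumours (SD, n = 7 each). It fell by 0.72 ± 0.19 (SE, log2) and 0.62 ± 0.19 (edgeR adjusted p = 0.0167 and 0.0299). Ugt1a6a, a glucuronosyltransferase that shares exons with its gene cluster, fell by 1.46 ± 0.46 and 1.61 ± 0.46 (adjusted p = 0.0446 and 0.0259), and Slc6a9, a glycine transporter, by 0.72 ± 0.24 in stable against vehicle (adjusted p = 0.0475). Without vehicle 2, 6 and 7, Ephx1 was at −0.21 and −0.10, Ugt1a6a at −0.53 and −0.67 and Slc6a9 at −0.40, none called (lowest edgeR adjusted p = 0.337).

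Of 31 other glutathione genes tested, 4 fell in relapse against vehicle (12.9%, against 5.8% of all genes) and 8 in stable against vehicle (25.8%, against 8.16%), with 0 higher. The transferases Gstt3 (−0.75 ± 0.16 and −0.73 ± 0.16, edgeR adjusted p = 0.00709 and 0.00663) and Gstm5 (−1.25 ± 0.32 and −1.46 ± 0.32, adjusted p = 0.0163 and 0.00622) fell in both. Gstk1, a transferase of mitochondria and peroxisomes, fell by 1.28 ± 0.31 in relapse against vehicle (adjusted p = 0.0118), and Chac2, which degrades glutathione, by 0.74 ± 0.16 in stable against vehicle (adjusted p = 0.00595). Chac2 stayed called without vehicle 2, 6 and 7 (−0.71, edgeR adjusted p = 0.0332), and the other 3 were not (lowest adjusted p = 0.0554).

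Of 24 other thioredoxin, peroxiredoxin and redox genes, 2 rose and 3 fell in relapse against vehicle (8.33% and 12.5%, against 5.42% and 5.8% of all genes), and 3 rose and 5 fell in stable against vehicle (12.5% and 20.8%, against 6.9% and 8.16%). Txnrd3, a thioredoxin and glutathione reductase, averaged 11.6 ± 0.709 CPM in relapse tumours and 10.3 ± 1.88 CPM in stable tumours, against 17.7 ± 3.38 CPM in vehicle tumours (SD, n = 7 each). It fell by 0.61 ± 0.13 and 0.78 ± 0.13 (edgeR adjusted p = 0.00712 and 0.00113), unlike Txnrd1, for which no call was made. The test of that difference between genes was not made. The sestrins, stress-induced proteins that restrain mTORC1, went in opposite directions. Sesn2 fell by 0.69 ± 0.17 and 0.82 ± 0.17 (edgeR adjusted p = 0.0127 and 0.00433), and Sesn3, a known FOXO target, rose by 0.72 ± 0.18 and 1.20 ± 0.18 (adjusted p = 0.0132 and 0.000492). All 3 stayed called without vehicle 2, 6 and 7 except Sesn3 in relapse against vehicle (0.78, edgeR adjusted p = 0.0601). None of the 8 further pentose phosphate genes tested was called in any comparison.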

How the data were processed

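Per the labels' protocols, frozen tumours were ground, and RNA was sequenced as stranded poly(A) libraries with single-end reads of 50 nucleotides. Per the submitters' processing notes, the build was mm10 and the tools included Picard 2.9.2, SAMtools 1.3.1, STAR 2.5.2a and edgeR. No source used here gives their roles, the annotation or the strand setting. The authors deposited whole-number counts per gene without normalization. An extra leading cell in 10202 rows was allowed for by reading the last 25 cells of each row.

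Groups came from the titles. The members and lists were chosen with earlier results of these data known. Counts were tested with edgeR 4.0.16 (R 4.3.3): filterByExpr by group, TMM scaling and the quasi-likelihood F test on all 21 tumours, with Benjamini-Hochberg adjustment over 15792 genes. The 37 genes all passed the filter. Genes "called" have an adjusted p under 0.05. Standard errors are the log2 fold change over the square root of F. Scripts were tested on simulated counts.

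Title codes, whose meaning is not given, number 7 in relapse, 4 in stable and 3 in vehicle tumours, and 2 are shared by relapse and stable. In each title the code is followed by a digit and the letter R or L, also unexplained, which differs between tumours of a code. If a code is an animal, tumours of a code are not independent, and p-values measure only the spread between tumours. Named genes were 8 fixed ones (Nfe2l2, Keap1, Nqo1, Hmox1, Gclc, Gclm, Slc7a11, Txnrd1), all called members, and up to 3 called genes of lowest p per further list and comparison. Alternatives were DESeq2 1.42.0 (size factors, Wald test), upper quartile factors, limma 3.58.1 voom, no filter and fits of the groups compared alone. Others were a replicate block, counts summed per code, a muscle covariate, and leaving out tumours. Voom took the title code as a random effect, with an estimated correlation of −0.04 between tumours of a code.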

Additional observations from a re-analysis of the deposited data

Results flagged for a closer look

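In 106 combinations of gene and group with more than 3 counts in each of 7 tumours, 8 had 1 tumour far from the other 6 (Dixon's criterion on log2 CPM); chance flags about 1 in 20 such groups. Stable 1 stood above the other stable tumours for Txnrd1 (609 CPM, against 105 to 190 CPM), Gss (35.6 CPM, against 15.8 to 20.8 CPM) and Gpx2 (5.39 CPM, against 0.468 to 0.955 CPM). Stable 5 stood below the other stable tumours for Tkt (84.9 CPM, against 157 to 247 CPM) and Prdx1 (122 CPM, against 288 to 485 CPM).

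Keap1 was 72.1 CPM in relapse 5, against 43.4 to 52.4 CPM in the other relapse tumours. Gsta3 was 23.4 CPM in relapse 3, against 3.79 to 7.78 CPM in the others. Hmox1 was 16.9 CPM in vehicle 6, against 27.4 to 37.4 CPM in the other vehicle tumours.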

How the results depend on the processing

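Relapse against vehicle had 1772 genes called and stable against vehicle 2378. Counts against vehicle moved by over 1.5 times under some of the settings below. They did not under upper quartile factors, voom, the DESeq2 Wald test or DESeq2 size factors, for which the changed calls are given. With vehicle 2, 6 and 7 left out, 2 and 1 of the 37 genes and 527 and 847 of all genes were called, and with counts also summed per title code 0 and 0 of the 37 and 180 and 172 of all genes (3353 and 3185 at an unadjusted p under 0.05). Summing alone gave 955 and 592 genes, with 2 of the 37 in stable against vehicle. The muscle covariate gave 0 and 0 of the 37 and 23 and 316 of all genes. A fit of the groups compared alone gave 964 genes in stable against vehicle, and lost Abcc4 in both comparisons (adjusted p = 0.0615 and 0.0717), Gsta4 in relapse (0.0554) and Srxn1 in stable (0.0917). Upper quartile factors lost Gsta4 in relapse (0.0518). Voom lost Abcc4 in both (0.0842 and 0.0624) and gained Sod3 in relapse (0.0342). The DESeq2 Wald test called 9 of the 37 in each comparison (16.4% and 20.6% of all genes). It gained Keap1 (0.0239), Srxn1 (0.0216) and Gclm (0.0452) in relapse against vehicle. In stable against vehicle it gained Gstm1 (0.0187) and Gpx3 (0.0499). EdgeR with DESeq2 size factors gained Srxn1 in relapse (0.0491). With a replicate block the counts were 987 and 1251 genes, with 5 of the 37 in each comparison; Abcc4 lost its call in both and Srxn1 in stable against vehicle. Same-numbered tumours did not deviate together over all genes tested (median correlation −0.04, over 0.1 in 3 of 21 pairs). In this check, 1 tumour correlated best with its own number. Tumours of a group also differed widely in cell type markers, so these correlations cannot decide whether the numbers pair the tumours. In relapse against stable, the DESeq2 Wald test called 6 genes. Leaving out each tumour in turn gave 4 to 9 and 5 to 10 of the 37, and 1156 to 2671 and 1470 to 3272 of all genes (2671 without stable 1; 1160 and 1496 without vehicle 2; 1156 and 1470 without vehicle 6). In relapse against stable it gave 0 to 4 genes and 0 of the 37.

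No called gene changed sign under any setting run. Of all 37, the sign turned for 6 in relapse against vehicle and 4 in stable against vehicle without vehicle 2, 6 and 7, and for 12 and 1 with the muscle covariate. Among the genes named in the rule, Gstm1 and Gstm2, the turns were these. In relapse against vehicle, Hmox1 was at 0.24 and Txnrd1 at 0.16 with the muscle covariate. Txnrd1 was at 0.00856 with upper quartile factors, and between −0.19 and 0.0201 without each tumour in turn, above 0 without relapse 1, relapse 3 or vehicle 4. Slc7a11 was at −0.20 without vehicle 2, 6 and 7 and −0.27 with codes also summed, Gstm1 at 0.25 and 0.37, and Gstm2 at 0.72 and 0.86. Gstm2 was also at 0.00998 with limma voom and 0.20 with the muscle covariate. In stable against vehicle, Gstm2 was at 0.18 without the 3 tumours and 0.34 with codes also summed. Slc7a11 was at 0.0114 with upper quartile factors, 0.24 with voom, 0.000693 in the fit of the groups compared alone and 0.0154 with the muscle covariate. Leaving out each tumour in turn put it between −0.17 and 0.19, above 0 without stable 3, 5, 6 or 7 or vehicle 1, 3, 4 or 5. Txnrd1 was at −0.19 with voom, −0.15 with the replicate block, −0.0612 with summed codes, −0.12 with codes summed and the 3 vehicle tumours left out, and between −0.47 and 0.13 without each tumour in turn, below 0 without stable 1, vehicle 3 or vehicle 5. The causes were not tested. Gpx2, Gsta1 and Gsta2, with as few as 3, 0 and 2 counts in a tumour, are limited by depth.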
